A study of Homo sapiens with 14 samples.

Results

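The genes described here are the CDK-activating kinase and the transcriptional cyclin-dependent kinases with their cyclins: CDK7, CCNH, MNAT1, CDK9, CCNT1, CDK12, CDK13, CCNK, CDK8 and CCNC. They were chosen as members of these kinase complexes, by symbol, and are 10 of the 60683 gene identifiers in the count tables. All 10 passed the filter on low counts in both cell lines. RNA was sequenced from A549, a lung cancer cell line, and SUM159, a triple negative breast cancer cell line. A549 cells were left untreated, treated for 10 days with 2 μM palbociclib, with 0.5 μM indisulam or with both drugs at those doses (the combination), or treated for 7 days with 0.5 μM PF-06873600. SUM159 cells were left untreated or treated for 7 days with 0.5 μM PF-06873600. Palbociclib inhibits CDK4 and CDK6, PF-06873600 inhibits CDK2, CDK4 and CDK6, and indisulam is a molecular glue that brings the splicing factor RBM39 to the DCAF15 ubiquitin ligase. Each of the 7 groups had 2 libraries (n = 2 throughout), 14 in all, with totals of 13060374 to 21149256 counts on genes. The submitters describe the libraries as technical duplicates, so the p-values measure the spread between such libraries and not between independent experiments. When the untreated cells were collected is not stated, and PF-06873600 was given for a shorter time than the other drugs, so its time and its identity cannot be told apart in comparisons with them.

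Cyclin-dependent kinases need a cyclin, and most also need a phosphate on their activation loop. CDK7 places that phosphate, in a complex with cyclin H (CCNH) and the assembly factor MAT1 (MNAT1) called the CDK-activating kinase, and the same complex rides on the general transcription factor TFIIH and phosphorylates the C-terminal tail of RNA polymerase II as transcription starts. CDK9 with cyclin T1 (CCNT1) forms P-TEFb, which releases paused polymerase into elongation. CDK12 and CDK13, each with cyclin K (CCNK), phosphorylate the polymerase further along the gene, and long genes, many DNA repair genes among them, depend on CDK12. CDK8 and cyclin C (CCNC) are the kinase and the cyclin in the kinase module of Mediator, the complex that links transcription factors to the polymerase.

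The stretch of genome before the RefSeq transcription start is shown for the members whose levels moved most. Each run is the 250 bases upstream of the RefSeq start on the gene's own strand (GRCh38), read 5′ to 3′. Capitals mark matches, on either strand, to 8 short motifs. They were the letters CCAAT, the GC box GGGCGG, the core of ETS factor sites CCGGAA, part of the E2F site, spelled TTTCGCG, the TATA box in the form TATAAA, the E box in the form CACGTG, part of the NRF1 site, spelled GCATGCGC, and the palindrome TCGCGA. The last was added after the CDK12 window had been read. CCNH, the cyclin that fell most with indisulam, is at chr5:87412931-87413180 on the minus strand, and CCNK, the cyclin that rose most in A549, at chr14:99481159-99481408 on the plus strand.
CCNH: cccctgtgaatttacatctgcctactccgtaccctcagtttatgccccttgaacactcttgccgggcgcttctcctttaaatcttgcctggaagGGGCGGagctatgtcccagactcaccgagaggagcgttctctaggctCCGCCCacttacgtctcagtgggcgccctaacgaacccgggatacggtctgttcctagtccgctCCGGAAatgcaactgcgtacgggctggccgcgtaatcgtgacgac
CCNK: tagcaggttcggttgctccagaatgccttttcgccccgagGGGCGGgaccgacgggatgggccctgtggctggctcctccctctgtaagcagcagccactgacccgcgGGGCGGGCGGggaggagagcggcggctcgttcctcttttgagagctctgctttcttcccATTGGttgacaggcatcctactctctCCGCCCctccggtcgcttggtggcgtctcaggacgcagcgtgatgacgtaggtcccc

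The CCNH window held the GC box at positions -156 and -109 from the start and the ETS core at -45. The CCNK window held the GC box at -210, -142, -138 and -57, the matches at -142 and -138 sharing letters, and CCAAT at -83. These letters are common: the GC box was in 42.6%, CCAAT in 32.0% and the ETS core in 14.5% of 35116 RefSeq windows of this length. Of the 10 members, which had 14 windows, 7 had the GC box in at least 1 window, 5 the ETS core and 3 CCAAT. Among genes that passed the filter on low counts in A549, 11517 had a window. Of these, 7563 held the GC box in the first window listed, 2779 the ETS core and 3992 CCAAT.

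The next 4 windows are shown because they share the letters TCGCGA, which 2.64% of all windows hold. Of the 11517 genes that passed the filter on low counts in A549 and had a window, 541 held these letters in the first one listed. CDK12 is at chr17:39461236-39461485, MNAT1 at chr14:60734511-60734760 and CDK8 at chr13:26253879-26254128, all on the plus strand, and CCNC at chr6:99568815-99569064 on the minus strand.
CDK12: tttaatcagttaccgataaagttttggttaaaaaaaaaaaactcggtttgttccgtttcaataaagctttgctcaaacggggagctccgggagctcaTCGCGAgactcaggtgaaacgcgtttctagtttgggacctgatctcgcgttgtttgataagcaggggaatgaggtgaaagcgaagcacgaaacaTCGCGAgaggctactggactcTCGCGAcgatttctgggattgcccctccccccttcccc
MNAT1: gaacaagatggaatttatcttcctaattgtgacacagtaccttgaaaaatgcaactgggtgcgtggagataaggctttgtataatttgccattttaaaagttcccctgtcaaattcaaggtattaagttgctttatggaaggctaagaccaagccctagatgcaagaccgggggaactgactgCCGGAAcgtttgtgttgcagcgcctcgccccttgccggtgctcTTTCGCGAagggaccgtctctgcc
CDK8: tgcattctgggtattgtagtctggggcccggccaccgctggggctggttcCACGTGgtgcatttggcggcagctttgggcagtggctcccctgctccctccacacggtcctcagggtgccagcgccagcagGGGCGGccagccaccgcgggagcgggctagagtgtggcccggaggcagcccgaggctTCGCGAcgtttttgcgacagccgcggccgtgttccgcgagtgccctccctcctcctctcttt
CCNC: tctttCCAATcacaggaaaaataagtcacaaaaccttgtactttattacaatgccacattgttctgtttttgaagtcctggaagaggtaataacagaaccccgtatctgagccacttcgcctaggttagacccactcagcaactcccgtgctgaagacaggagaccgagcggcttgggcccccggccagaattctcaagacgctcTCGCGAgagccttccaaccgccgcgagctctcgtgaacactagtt

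CDK12 had TCGCGA at -153, -59 and -38, MNAT1 at -22, where it shares letters with TTTCGCG, CDK8 at -62 and CCNC at -45. CDK12 had none of the other 7 motifs. CCNC has a further RefSeq start, which is not shown. A RefSeq start can lie inside the gene as annotated by GENCODE. The CCNK window is largely within that gene, which starts at 99481169, and the windows of MNAT1, CDK8 and CCNC reach into theirs. A match is a run of letters and not a measured binding site.

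Levels per library are in CPM, the read count of a gene over its library's total on genes, times the same constant in every library, and levels compared between genes were further divided by the length of the gene's exons in kilobases. In untreated A549 cells CDK7 had 14 ± 1.5 (SD) CPM per kilobase and CDK9 13.9 ± 0.856, the highest of the 10, and their libraries overlapped. CCNT1 followed at 11.1 ± 1.00, then CCNC at 9.24 ± 1.22 and CCNK at 9.13 ± 0.588, which also overlapped. MNAT1 had 6.0 ± 0.176, CDK12 5.47 ± 0.156, CCNH 3.86 ± 0.241, CDK8 3.47 ± 0.163 and CDK13 2.19 ± 0.0296 CPM per kilobase, with no overlap between neighbours in this order. Every member was thus expressed without drug, and within the CDK-activating kinase the kinase was above its cyclin and its assembly factor on this scale. With the longest transcript as the length, CCNC came first at 23.4 and CDK7 second at 23.3 CPM per kilobase, so the order of these levels depends on which transcripts the cells use. Exons of genes on the other strand cover 59.5% of the exon bases of CCNK, 21.2% of CCNH and 13.1% of CCNC. Whether reads there were counted is not given in the sources used here, so the levels per kilobase of these 3 genes may be too low.

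Untreated SUM159 cells were compared with untreated A549 cells to show where the lines start. 7 of the 10 members were higher in SUM159 and 0 lower, where 41.9% of 17279 genes tested were higher and 36.8% lower. CDK12 had 202 and 212 CPM in SUM159 against 69.5 and 72.4 in A549, a 2.92-fold difference (log2 1.54 ± 0.068 SE, adjusted p = 8.27e-14, edgeR). CDK8 was 2.01-fold higher (log2 1.01 ± 0.099, adjusted p = 1.78e-08), CCNH 1.75-fold (log2 0.80 ± 0.085, adjusted p = 4.87e-08) and CDK7 1.67-fold (log2 0.74 ± 0.090, adjusted p = 3.56e-07). CCNC was 1.59-fold and CCNK 1.31-fold higher. RASA1, a gene whose exons overlap those of CCNH on the other strand, was higher too (log2 0.73 ± 0.079, adjusted p = 6.75e-08, edgeR). MNAT1 (log2 0.088), CDK9 (0.17) and CCNT1 (0.025) did not pass the test, though CDK9 did without A549 untreated replicate 1 (0.23, adjusted p = 0.0291). With TMM scaling MNAT1 (-0.017) and CCNT1 (-0.082) took the other sign. CDK13 passed it narrowly (log2 0.14, adjusted p = 0.0493) but not with TMM scaling (log2 0.037, adjusted p = 0.637), DESeq2 (0.054), no filter, the replicate number as a block (adjusted p = 0.0656) or only the 2 groups in the model, nor without A549 untreated replicate 1 (0.13), A549 untreated replicate 2 (0.16) or SUM159 untreated replicate 1 (0.099). In the order per kilobase CDK12 thus moved from 7th place in A549 to 2nd in SUM159, at 16.0 ± 0.570 CPM per kilobase, with libraries that overlapped those of CDK9. Tissue, line and culture cannot be told apart in this comparison.

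**Figure D1:**
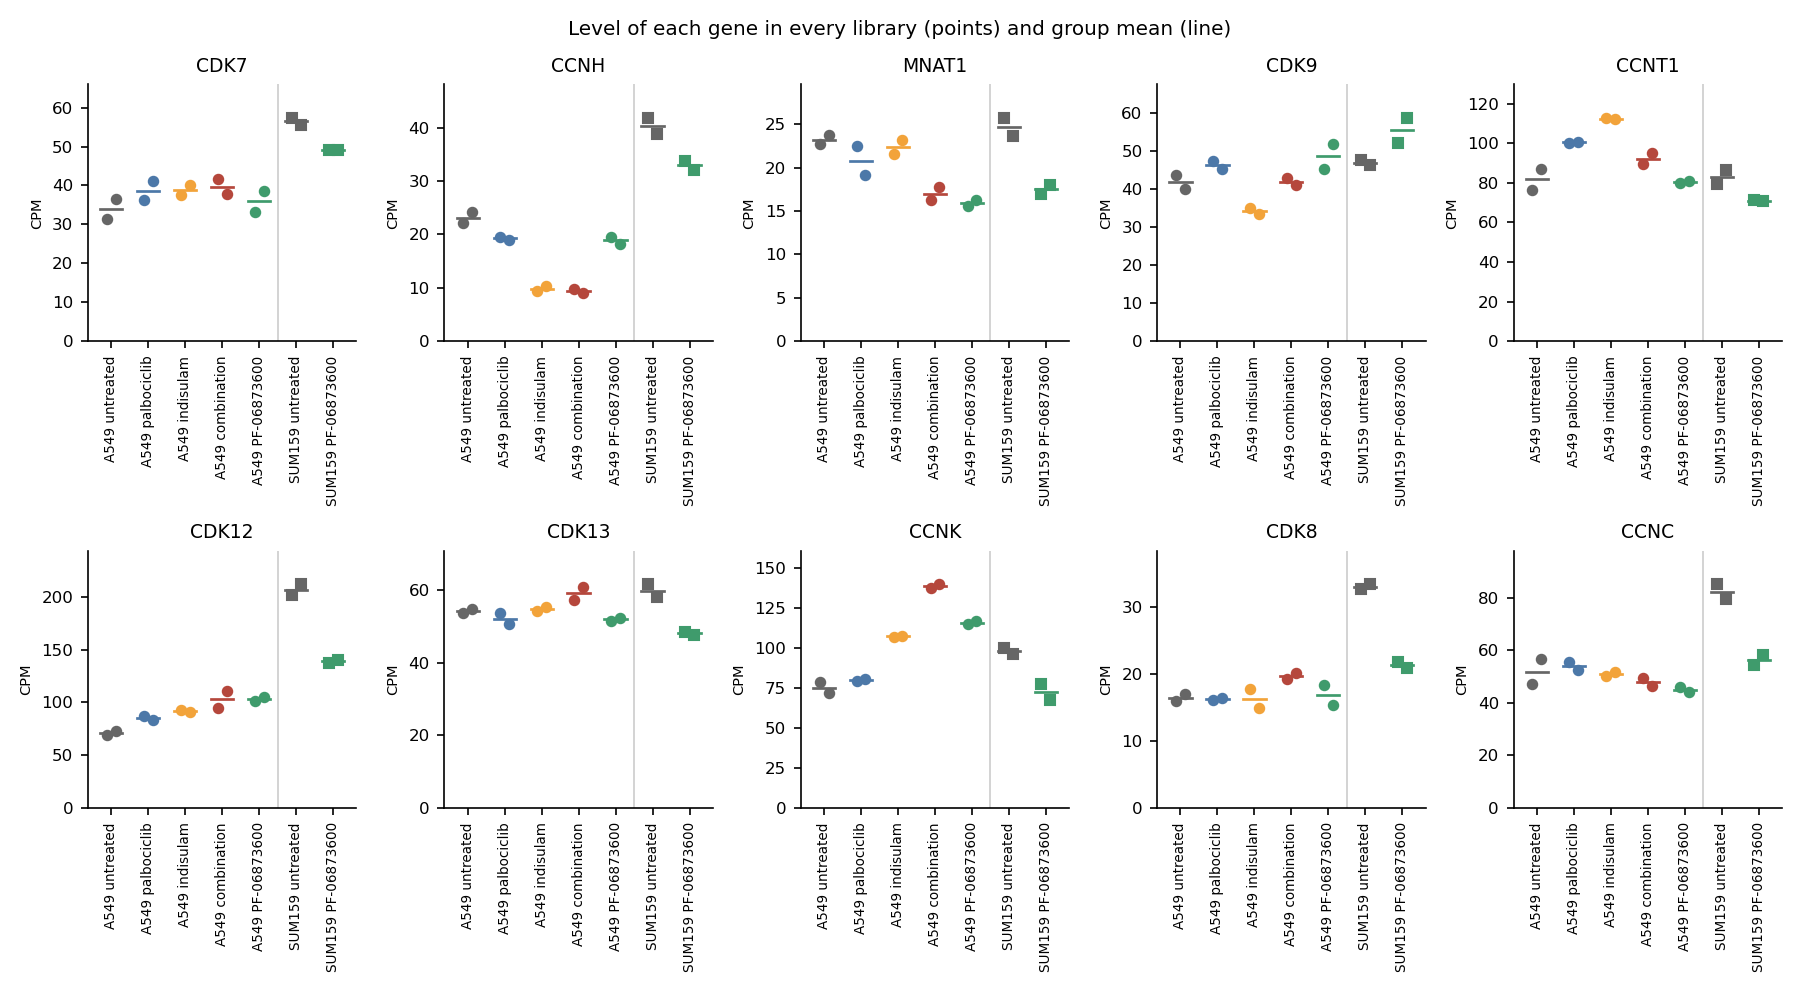
Level of each of the 10 genes in CPM (vertical axis, from 0) in every library of the 7 groups (points, with circles for A549 and squares for SUM159; the line is the group mean). CCNH sits at 9.07 to 10.4 CPM in the 4 A549 libraries with indisulam and at 22.1 and 24.1 in untreated A549, and CCNK rises to 137 and 139 CPM in the combination.

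Facts that touch every comparison are these. The summed level of 10 proliferation markers was 845 and 890 CPM in untreated A549 and 251 and 256 with the combination. It was 754 and 790 in A549 with palbociclib, 803 and 831 with indisulam and 822 and 850 with PF-06873600. In SUM159 it was 3332 and 3411 without drug and 1264 and 1274 with PF-06873600. All 10 markers were lower with the combination and in SUM159 with PF-06873600. In A549, 7 were lower and 3 higher with PF-06873600 (RRM2 by 1.88 on the log2 scale), 5 lower and 2 higher with palbociclib, and 4 lower and 2 higher with indisulam. The mean summed level of 8 epithelial and alveolar markers was 4823 CPM in untreated A549. It was 7644 with palbociclib, 7895 with indisulam, 9641 with the combination and 11216 with PF-06873600. Most of this sum came from KRT8 (1908 to 5680 CPM over the A549 libraries) and KRT18 (2389 to 5467). Of the 5 tested, 2 were higher and 1 lower with palbociclib, and 4 higher and 0 lower with indisulam. With the combination and with PF-06873600, 3 were higher and 2 lower. EPCAM was lower with palbociclib (log2 -0.81), the combination (-0.42) and PF-06873600 (-1.28). CDH1 was lower with the combination (-0.29) and PF-06873600 (-0.70). The mean summed level of 4 mesenchymal markers was 2366 CPM in untreated A549 and 3705 with the combination. In SUM159 it was 7555 without drug and 17624 with PF-06873600. Of these 4 in SUM159, 2 were higher with the drug, FN1 (log2 2.13) and ZEB1 (0.30), and VIM was lower (-0.21). FN1 ranged over 2764 to 13795 CPM in the SUM159 libraries and VIM over 3609 to 4318. Of the 8 epithelial and alveolar markers, the keratins KRT8 and KRT18, CDH1 and EPCAM were expressed in A549, while the alveolar genes NKX2-1, SFTPB and SFTPC stayed at or under 7 counts in every library of both lines. The fourth alveolar gene, NAPSA, reached 52 counts (3.69 CPM) in A549 and was higher with indisulam (log2 1.41), the combination (2.27) and PF-06873600 (1.32). The receptor genes ESR1 and PGR were at or under 14 counts in SUM159, while ERBB2 reached 2754 counts there and was lower in the 4 treated A549 groups (log2 -0.46 to -0.21), and CD3E was at 0 in all libraries. The summed level of 5 blood and endothelial markers, of which PTPRC and PECAM1 gave the counts, was 20.4 and 21.5 CPM in untreated SUM159 and 46.0 and 46.3 with PF-06873600, and at most 1.73 CPM in A549. Their part in the SUM159 values was not tested. The part of these markers in the values given here was not tested. The counting program's use of strand is not given in the sources used here, and genes that share exon sequence with CCNH, CCNK or CCNC are named beside them. The 3 RNA genes that overlap MNAT1 or CDK9 on the same strand, MIR3960 and MIR2861 among them, had 0 counts in every library.

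Indisulam alone was compared with no drug to ask how the CDK-activating kinase and the other kinases stand at 10 days. CCNH, the cyclin of the CDK-activating kinase, fell, while its partners CDK7 and MNAT1 did not pass the test. The P-TEFb pair moved apart, with CCNT1 higher and CDK9 lower, and CDK12 and its cyclin CCNK rose. In all 3 members were higher, where 28.0% of 15780 genes were, and 2 were lower, where 17.5% were. The members' median log2 fold change was 0.0015, and that of all genes 0.080. Over all genes 4420 were higher and 2757 lower, and with TMM scaling 3613 were higher and 3558 lower, while the same numbers of members, 3 and 2, passed.

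CCNH (ENSG00000134480, chr5:87318416-87412930, minus strand) had read counts of 325 and 362 without drug, falling to 135 and 157 with indisulam. As CPM these were 22.1 and 24.1 against 9.33 and 10.4, and the groups lay far apart. The level was 2.34-fold lower (log2 -1.23 ± 0.11 SE, adjusted p = 3.71e-07, edgeR's quasi-likelihood test with Benjamini-Hochberg adjustment), and this log2 fold change ranked 375th from the lowest of 15780. With any 1 library left out the fall still passed the test. In such bulk RNA, fewer cells with the transcript and less of it per cell cannot be told apart. Of the CCNH exon bases in GENCODE, 12.9% lie under exons of RASA1 on the other strand. RASA1, a Ras GTPase-activating protein gene, was higher with indisulam (log2 0.28 ± 0.088, adjusted p = 0.0174), the direction opposite to that of CCNH. Its part in the CCNH counts was not tested. A long non-coding RNA gene on the other strand, over 8.29% of the CCNH exon bases, had at most 3 counts in a library.

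CDK7, the catalytic subunit (ENSG00000134058, chr5:69234795-69277430, plus strand), had 31.3 and 36.4 CPM without drug and 37.5 and 40.0 with indisulam (log2 0.20 ± 0.10, adjusted p = 0.130), and passed the test without A549 untreated replicate 2 (0.31, 0.0269). MNAT1, the assembly factor (ENSG00000020426, chr14:60734742-60969965, plus strand), had 22.8 and 23.7 against 21.6 and 23.3 CPM (log2 -0.053 ± 0.10, adjusted p = 0.693), and its groups overlapped. The reads of CCNH per read of CDK7, set to 1 as the mean of the untreated A549 libraries, were thus 0.363 and 0.378 with indisulam. This ratio is taken within each library and does not depend on the scaling.

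CCNT1, the cyclin of P-TEFb (ENSG00000129315, chr12:48688458-48716998, minus strand), rose from 76.5 and 87.0 to 113 and 112 CPM (1.38-fold, log2 0.46 ± 0.067, adjusted p = 6.96e-05). CDK9, its kinase (ENSG00000136807, chr9:127785679-127790792, plus strand), fell from 43.6 and 40.0 to 35.0 and 33.5 CPM (1.22-fold lower, log2 -0.29 ± 0.085, adjusted p = 0.0130). The fall of CDK9 missed the threshold without A549 untreated replicate 1 (log2 -0.22, adjusted p = 0.0572) and without A549 indisulam replicate 2 (-0.25, 0.0870), and with only the 2 groups in the model (-0.29, 0.0510). CCNT1 to CDK9 reads stood at 1.64 and 1.70 of the untreated mean, above the 0.893 and 1.11 of the untreated libraries.

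CCNK (ENSG00000090061, chr14:99481169-99535044, plus strand) rose from 78.4 and 71.6 to 107 and 108 CPM (1.43-fold, log2 0.51 ± 0.061, adjusted p = 9.78e-06). CDK12 (ENSG00000167258, chr17:39461486-39567559, plus strand) rose from 69.5 and 72.4 to 92.7 and 90.9 CPM (1.29-fold, log2 0.37 ± 0.074, adjusted p = 0.000967). CDK13, which shares the same cyclin (ENSG00000065883, chr7:39950121-40099580, plus strand), had 53.6 and 54.7 CPM without drug and 54.3 and 55.3 with it (log2 0.017, adjusted p = 0.857). So 2 of the 3 genes of this set were higher and the groups of the third overlapped. Of the CCNK exon bases, 59.5% lie under exons of CCDC85C on the other strand, and CCDC85C was higher too (log2 0.39 ± 0.070, adjusted p = 0.000386). Its part in the CCNK counts was not tested. CDK8 (ENSG00000132964, chr13:26254104-26420982, plus strand; log2 -0.014) and CCNC (ENSG00000112237, chr6:99542387-99568825, minus strand; log2 -0.025) had overlapping groups. TSTD3, over 13.1% of the CCNC exon bases on the other strand, had 16 to 58 counts a library.

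Palbociclib alone moved the fewest members. Of the 10, 2 were higher, where 8.30% of all genes were, and 0 were lower, where 7.40% were. CCNT1 went from 76.5 and 87.0 to 100.1 and 100.9 CPM (1.23-fold, log2 0.30 ± 0.067, adjusted p = 0.00793), and CDK12 from 69.5 and 72.4 to 87.0 and 83.5 CPM (1.2-fold, log2 0.26 ± 0.075, adjusted p = 0.0264). Neither call was stable: CCNT1 missed the threshold without A549 palbociclib replicate 2 (adjusted p = 0.0581), CDK12 without replicate 1 (0.146) or replicate 2 (0.0768) of that group, and both missed it with only the 2 groups in the model (0.0929 and 0.102, edgeR). CCNH had 19.5 and 19.0 CPM against 22.1 and 24.1, below both untreated libraries but not past the test (log2 -0.26 ± 0.096, adjusted p = 0.0824), which it passed without A549 untreated replicate 1 (-0.33, 0.0404). CDK7 (log2 0.19), CDK8 (-0.019) and CCNC (0.056) had overlapping groups, and MNAT1 (-0.16), CDK9 (0.14), CDK13 (-0.057) and CCNK (0.086) did not pass the test either.

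The combination was compared with no drug and with each drug alone. Against no drug, the CDK-activating kinase had 2 of its 3 genes lower, CCNH and MNAT1, and the set of CDK12 and CDK13 with cyclin K had 2 of its 3 higher, CDK12 and CCNK, and CCNT1 was higher. These 3 higher and 2 lower members stand beside 35.1% and 30.0% of all genes. The members' median log2 fold change was 0.15 against 0.052 for all genes.

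CCNH had 9.71 and 9.07 CPM with the combination, against 22.1 and 24.1 without drug and 9.33 and 10.4 with indisulam. Its fall against no drug was 2.46-fold (log2 -1.30 ± 0.11, adjusted p = 6.48e-08), ranked 971st from the lowest of 15780. Between the combination and indisulam alone the log2 difference was -0.071 ± 0.12 (adjusted p = 0.655) with overlapping groups. The interaction, which asks whether the combination departs from adding up the log2 effects of each drug alone, was 0.19 ± 0.15 (adjusted p = 0.404). Against palbociclib alone CCNH was 2.05-fold lower (log2 -1.04 ± 0.11, adjusted p = 1.2e-06). RASA1, whose exons CCNH shares in part, was 2.01-fold higher than without drug, again opposite to CCNH.

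MNAT1 had 16.2 and 17.8 CPM with the combination, below the 22.8 and 23.7 without drug, the 22.5 and 19.2 with palbociclib and the 21.6 and 23.3 with indisulam. It was lower than without drug (1.36-fold, log2 -0.45 ± 0.10, adjusted p = 0.00151) and lower than with indisulam (log2 -0.39 ± 0.10, adjusted p = 0.00611). The latter missed the threshold without A549 indisulam replicate 2 (log2 -0.34, adjusted p = 0.0581) and without A549 combination replicate 1 (-0.33, 0.0690), and with DESeq2 (-0.36, 0.0589). The lower level against palbociclib (log2 -0.28, adjusted p = 0.0298) was lost without A549 palbociclib replicate 1 (-0.17) and without A549 combination replicate 1 (-0.22), with DESeq2 (-0.33, 0.0663) and with no filter (-0.28, 0.0518). The interaction did not pass the test (log2 -0.23 ± 0.14, adjusted p = 0.277). CDK7 had 41.6 and 37.9 CPM (log2 0.23 ± 0.10 against no drug, adjusted p = 0.0599), and passed the threshold with the replicate number as a block (adjusted p = 0.0413), with no filter (0.0455) and without A549 untreated replicate 2 (0.34, 0.00994).

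CCNK rose in steps that each passed the test except the one from no drug to palbociclib. The libraries held 78.4 and 71.6 CPM without drug, 79.1 and 80.1 with palbociclib, 107 and 108 with indisulam and 137 and 139 with the combination. The combination stood 1.85-fold above no drug (log2 0.88 ± 0.060, adjusted p = 8.86e-09), 1.74-fold above palbociclib (log2 0.80 ± 0.060, adjusted p = 3.41e-08) and 1.29-fold above indisulam (log2 0.37 ± 0.059, adjusted p = 0.000132). The interaction was 0.29 ± 0.085 (adjusted p = 0.0241), but it missed the threshold when any 1 of the 6 drug-treated libraries was left out (log2 0.28 to 0.30, adjusted p = 0.0635 to 0.0859). CCDC85C, on the other strand, was 1.72-fold higher with the combination and had an interaction of 0.38 ± 0.098 (adjusted p = 0.0106).

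CDK12 had 94.8 and 111 CPM with the combination (1.45-fold above no drug, log2 0.54 ± 0.074, adjusted p = 1.59e-05). Against indisulam alone the difference did not pass the test (log2 0.17 ± 0.073, adjusted p = 0.0763) but did without A549 combination replicate 1 (0.27, 0.0140) and with only the 2 groups in the model (0.17, 0.0326), and against palbociclib it did (log2 0.27 ± 0.073, adjusted p = 0.00486), except without A549 combination replicate 2 (0.15, 0.119) and with TMM scaling (0.18, 0.0501). Its interaction was -0.099 ± 0.10 (adjusted p = 0.541). CDK13 did not pass the test against no drug (log2 0.12) and rose against palbociclib by 0.18 on the log2 scale (adjusted p = 0.0288), which was lost without A549 palbociclib replicate 2 or A549 combination replicate 2 (both 0.14), with TMM scaling (0.090), with DESeq2 (0.14) and with no filter (0.18, adjusted p = 0.0935).

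CCNT1 showed the largest interaction of the 10 members in size. Each drug alone had raised it, yet the combination libraries held 89.5 and 95.0 CPM, under the 100.1 and 100.9 with palbociclib and the 113 and 112 with indisulam. The interaction was -0.58 ± 0.095 (adjusted p = 0.000387), and it passed the test with each of the 8 libraries left out in turn. Together with CCNK this gives 1 member with an interaction above 0, where 10.7% of genes had one, and 1 below 0, where 14.5% had. The interactions of CDK7 (log2 -0.16), CDK9 (0.15), CDK13 (0.17), CDK8 (0.30) and CCNC (-0.15) did not pass the test. CCNT1 remained above no drug (log2 0.17 ± 0.068, adjusted p = 0.0354), a call lost with TMM scaling (0.089, 0.278), DESeq2 (0.14, 0.198), no filter (0.17, 0.0593) and only the 2 groups in the model (0.17, 0.121), without A549 untreated replicate 1 (0.085, 0.242) and without A549 combination replicate 2 (0.13, 0.223). It was lower than with indisulam alone (log2 -0.29 ± 0.067, adjusted p = 0.00281). CDK9 had 42.9 and 40.9 CPM with the combination, overlapping the untreated 43.6 and 40.0 (log2 0.0030), and was higher than with indisulam (log2 0.29 ± 0.085, adjusted p = 0.0119), except without A549 indisulam replicate 2 or A549 combination replicate 1 (both 0.26).

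Neither gene of the Mediator pair passed the test against untreated A549 cells. CDK8 had 15.9 and 17.0 CPM without drug and 19.3 and 20.2 with the combination (log2 0.26 ± 0.11, adjusted p = 0.0516), and passed without A549 untreated replicate 2 (0.31, 0.0466). It passed the test against palbociclib (log2 0.28 ± 0.11, adjusted p = 0.0416), a call lost when any 1 of the 4 libraries was left out (log2 0.25 to 0.32, adjusted p = 0.0853 to 0.179) and with TMM scaling (0.19, 0.156), DESeq2 (0.24, 0.230) or no filter (0.28, 0.0590). CCNC had 47.0 and 56.7 CPM without drug and 49.4 and 46.3 with the combination, which overlap (log2 -0.12 ± 0.087, or -0.25 with adjusted p = 0.00922 without A549 untreated replicate 1 and 0.025 without replicate 2). Against palbociclib the combination thus had 4 members higher and 2 lower, beside 33.5% and 26.9% of genes. With TMM scaling the 6 that passed were 1 higher, CCNK, and 5 lower, CDK9 (log2 -0.23), CCNT1 (-0.22) and CCNC (-0.27) having joined CCNH and MNAT1, while over all genes 4542 were higher and 5067 lower. Against indisulam alone 2 members were higher and 2 lower, beside 22.0% and 23.9% of genes. Not past the test were CDK7 (log2 0.037), CDK9 (-0.14), CCNT1 (-0.12) and CCNC (-0.17) against palbociclib with total-count scaling, and CDK7 (0.033), CDK13 (0.11), CDK8 (0.28) and CCNC (-0.092) against indisulam. With only the compared groups in the model, CCNC passed against palbociclib (adjusted p = 0.0329) and CDK8 against indisulam (0.0294).

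**Figure D2:**
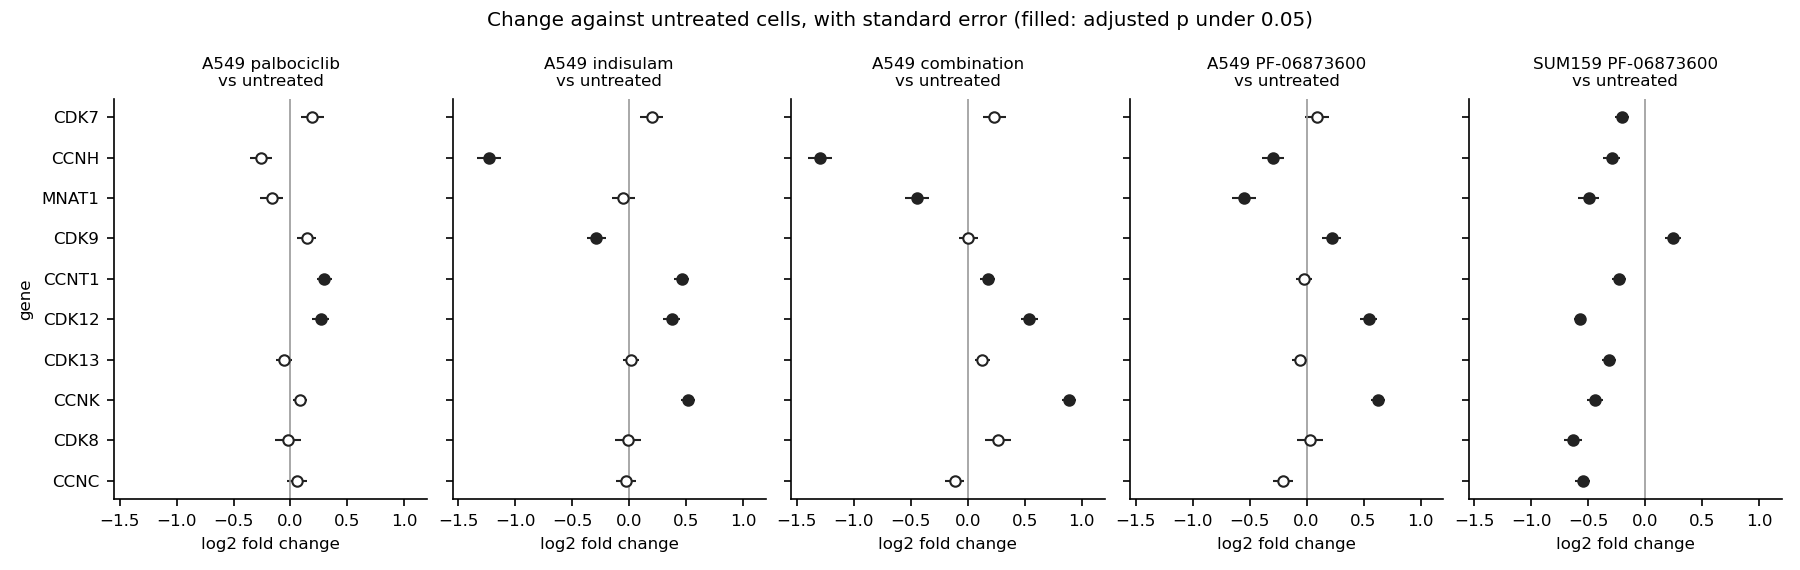
Log2 fold change of each gene against untreated cells of its line (horizontal axis, with the standard error as a bar) in the 5 treated groups; filled points passed an adjusted p of 0.05. CCNH lies at -1.23 with indisulam and -1.30 with the combination, and in SUM159 9 of 10 points are filled below 0.

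PF-06873600 inhibits CDK2 together with CDK4 and CDK6, and it was the drug given to both lines at the same dose and time. In A549, 3 members were higher (CDK9, CDK12, CCNK) and 2 lower (CCNH, MNAT1), where 28.5% and 27.8% of genes were. In SUM159, 9 members were lower and 1, CDK9, was higher, where 35.6% and 38.1% of genes were. The members' median log2 fold change was 0.0037 in A549 and -0.38 in SUM159, where the medians of all genes were -0.0082 and 0.020. The difference between the lines passed the test for 5 members, all lower in SUM159 (27.2% of genes were lower in that sense), and 0 were higher (25.8%).

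MNAT1 and CCNH, of the CDK-activating kinase, fell by similar amounts in the lines. MNAT1 went from 22.8 and 23.7 to 15.5 and 16.3 CPM in A549 (1.46-fold lower, log2 -0.55 ± 0.10, adjusted p = 0.000437) and from 25.8 and 23.7 to 17.0 and 18.0 CPM in SUM159 (1.41-fold lower, log2 -0.49 ± 0.091, adjusted p = 0.000186). The line difference was 0.051 ± 0.14 (adjusted p = 0.808). CCNH went from 22.1 and 24.1 to 19.4 and 18.3 CPM in A549 (log2 -0.29 ± 0.097, adjusted p = 0.0178) and from 41.9 and 38.9 to 33.8 and 32.2 CPM in SUM159 (log2 -0.29 ± 0.073, adjusted p = 0.00225). The line difference of CCNH was 0.0023 ± 0.12 (adjusted p = 1.00). In A549 the fall of CCNH was lost without A549 untreated replicate 2 (log2 -0.23), without A549 PF-06873600 replicate 2 (-0.25) and with DESeq2 (-0.27, adjusted p = 0.152). RASA1, which overlaps CCNH, was lower in SUM159 with the drug (log2 -0.76 ± 0.058, adjusted p = 1.64e-08, edgeR), the direction of CCNH. In A549 RASA1 did not pass the test (0.21 ± 0.088, adjusted p = 0.0507, edgeR). Its line difference was -0.98 ± 0.11 (adjusted p = 4.77e-07, edgeR). The part of RASA1 in the CCNH counts was not tested here either. CDK7 had 33.2 and 38.6 CPM in treated A549, overlapping the untreated libraries (log2 0.091), and fell in SUM159 from 57.4 and 55.6 to 49.1 and 49.2 CPM (log2 -0.20 ± 0.062, adjusted p = 0.00924). That fall was lost without either PF-06873600 library of SUM159 (log2 -0.20, adjusted p = 0.0659 without replicate 1 and 0.0641 without replicate 2), and with DESeq2 (-0.21, 0.0638). The line difference did not pass the test (log2 -0.29 ± 0.13, adjusted p = 0.0603) unless A549 untreated replicate 2 (-0.41, 0.00929) or A549 PF-06873600 replicate 1 (-0.39, 0.0252) was left out.

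CDK12 and CCNK moved in opposite directions in the lines. CDK12 rose in A549 from 69.5 and 72.4 to 102 and 105 CPM (1.46-fold, log2 0.54 ± 0.074, adjusted p = 2.04e-05) and fell in SUM159 from 202 and 212 to 138 and 141 CPM (1.49-fold lower, log2 -0.57 ± 0.054, adjusted p = 1.94e-07). CCNK rose in A549 from 78.4 and 71.6 to 115 and 116 CPM (1.54-fold, log2 0.62 ± 0.061, adjusted p = 7.06e-07) and fell in SUM159 from 99.9 and 96.1 to 77.4 and 67.3 CPM (1.36-fold lower, log2 -0.44 ± 0.066, adjusted p = 2.7e-05). The line difference was -1.12 ± 0.094 for CDK12 (adjusted p = 7.74e-09) and -1.06 ± 0.094 for CCNK (adjusted p = 1.49e-08). SUM159 thus started above A549 for both genes, and after PF-06873600 CCNK was at a lower level in SUM159 than in A549 while CDK12 stayed at a higher one. CCDC85C, which overlaps CCNK, had 34.1 and 33.1 CPM in untreated and 30.6 and 32.2 CPM in treated SUM159 (log2 -0.096 ± 0.074, adjusted p = 0.257). In A549 it was higher with the drug (log2 0.50 ± 0.069, adjusted p = 2.76e-05), and its line difference was -0.59 ± 0.098 (adjusted p = 4.09e-05), both in the direction of CCNK. Its part in the CCNK counts was not tested here either.

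CDK13 fell in SUM159 from 61.5 and 58.0 to 48.3 and 47.7 CPM (log2 -0.32 ± 0.063, adjusted p = 0.000373) and had 51.5 and 52.2 CPM in treated A549 (log2 -0.061, adjusted p = 0.462). The line difference was -0.26 ± 0.091 (adjusted p = 0.0239). It was lost with TMM scaling (-0.20, 0.100), DESeq2 (-0.21, 0.200) and no filter (-0.26, 0.0949), and in 5 of the 8 fits without 1 library: A549 PF-06873600 replicate 1 or 2, SUM159 untreated replicate 1, or SUM159 PF-06873600 replicate 1 or 2 (log2 -0.26 to -0.21, adjusted p = 0.0524 to 0.102).

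The Mediator kinase and its cyclin fell in SUM159. CDK8 went from 32.7 and 33.4 to 21.8 and 20.9 CPM (1.55-fold lower, log2 -0.63 ± 0.079, adjusted p = 4.03e-06), while in A549 it had 18.3 and 15.4 CPM, overlapping the untreated 15.9 and 17.0 (log2 0.027). Its line difference was -0.66 ± 0.14 (adjusted p = 0.000617). CCNC went from 85.1 and 79.7 to 54.3 and 58.1 CPM in SUM159 (1.46-fold lower, log2 -0.55 ± 0.062, adjusted p = 1.41e-06) and had 45.9 and 44.02 CPM in treated A549 (log2 -0.21 ± 0.087, adjusted p = 0.0566, or -0.34 and 0.00116 without A549 untreated replicate 1). The line difference of CCNC, -0.34 ± 0.11 (adjusted p = 0.0156), was lost with DESeq2 (-0.30, 0.0892) and without replicate 1 of any of the 4 groups (-0.32 to -0.21, adjusted p = 0.0614 to 0.0786).

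In P-TEFb, CDK9 was higher in both lines and CCNT1 was lower in SUM159. CDK9 had 45.3 and 51.9 CPM in treated A549 against 43.6 and 40.0 (log2 0.22 ± 0.082, adjusted p = 0.0332), and 52.1 and 58.7 against 47.6 and 46.3 in SUM159 (log2 0.24 ± 0.071, adjusted p = 0.00643). The call in A549 was lost without A549 untreated replicate 2 (0.16, 0.137), without A549 PF-06873600 replicate 2 (0.12, 0.372) with DESeq2 (0.24, 0.0746) with no filter (0.22, 0.0502) and with only the 2 groups in the model (0.22, 0.0935), and that in SUM159 without SUM159 PF-06873600 replicate 2 (0.15, 0.175). CCNT1 had 80.2 and 81.1 CPM in treated A549, within the untreated 76.5 and 87.0 (log2 -0.020), and fell in SUM159 from 79.7 and 86.7 to 71.2 and 70.8 CPM (log2 -0.23 ± 0.060, adjusted p = 0.00309). The line difference was 0.019 for CDK9 (adjusted p = 0.935). That of CCNT1 was -0.21 ± 0.094 (adjusted p = 0.0705), and it passed the test without A549 untreated replicate 2 (-0.30, 0.00540) or SUM159 untreated replicate 1 (-0.27, 0.0374).

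**Figure D3:**
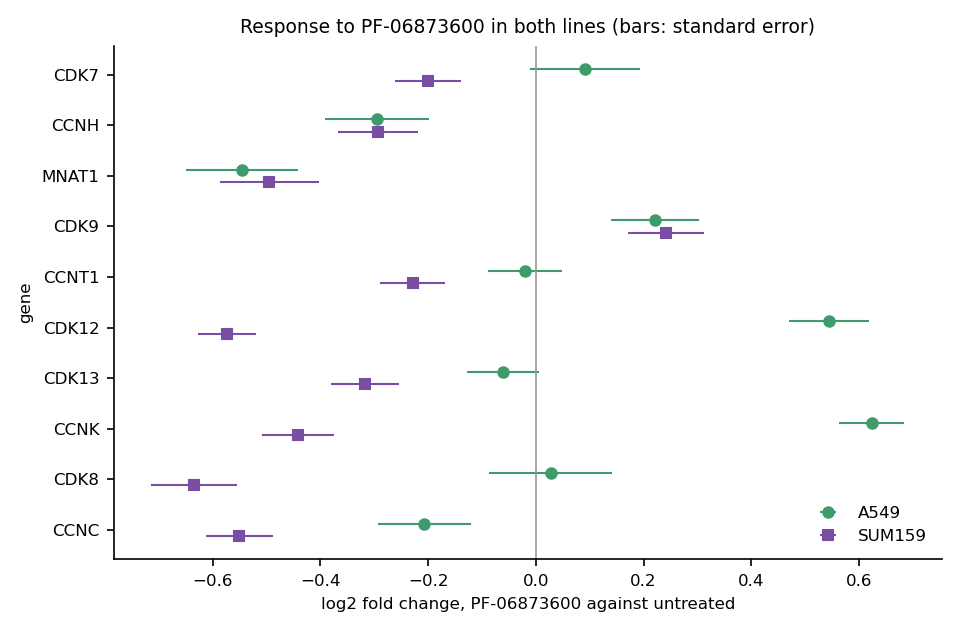
Log2 fold change with PF-06873600 against untreated cells for each gene (horizontal axis, bars are standard errors), with A549 as circles and SUM159 as squares. MNAT1, CCNH and CDK9 lie side by side in the lines, and CDK12 lies at 0.54 in A549 and -0.57 in SUM159.

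The 4 members with the letters TCGCGA before their start (CDK8, CDK12, CCNC and MNAT1) were the 4 with the lowest log2 fold changes in SUM159 with PF-06873600, -0.63 to -0.49. Among all genes tested in SUM159 that had a RefSeq window, 529 held these letters. Of these 48.6% were lower and 27.0% higher, with a median log2 fold change of -0.19, while of 11132 genes with any window 38.1% were lower and 37.8% higher, with a median of -0.0024. In A549 with PF-06873600, 541 genes with the letters had a median of -0.0073, with 28.8% lower and 28.3% higher, and those 4 members had log2 fold changes of 0.027, 0.54, -0.21 and -0.55. With the combination, 38.4% of the genes with the letters were lower and 28.3% higher, against 31.3% and 36.0% of genes with any window. CDK8, CDK12, CCNC and MNAT1 then had log2 fold changes of 0.26, 0.54, -0.12 and -0.45. Windows with TTTCGCG, GCATGCGC or the ETS core had similar shares in SUM159 (49.1%, 46.7% and 46.7% lower), and those with TATAAA had 31.0% lower. The letters were picked from the CDK12 window, so these values are a description with no test.

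The balance of partner transcripts within each library is shown by ratios of counts, each set to 1 in the untreated cells of its line. CCNH to CDK7 was 0.341 and 0.350 with the combination, 0.789 and 0.677 with palbociclib and 0.855 and 0.692 with PF-06873600 in A549, while in SUM159 PF-06873600 left it at 0.965 and 0.914. By group mean, MNAT1 to CDK7 was lowest in A549 with the combination (0.566 and 0.681) and with PF-06873600 (0.678 and 0.610). The palbociclib libraries (0.902 and 0.676) overlapped both. CCNH to MNAT1 was 0.436 and 0.449 with indisulam but 1.26 and 1.13 with PF-06873600 in A549. CCNK to CDK13 rose to 1.73 and 1.66 with the combination and 1.60 and 1.61 with PF-06873600 in A549, and was 0.977 and 0.860 in SUM159. CCNK to CDK12 ranged from 0.859 to 1.37 over all treated libraries. CDK12 to CDK13 was 1.51 and 1.54 with PF-06873600 in A549 and 0.822 and 0.849 in SUM159. CCNC to CDK8 was 0.814 and 0.729 with the combination, below both untreated libraries. With 2 libraries a group no test was run on these ratios.

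**Figure D4:**
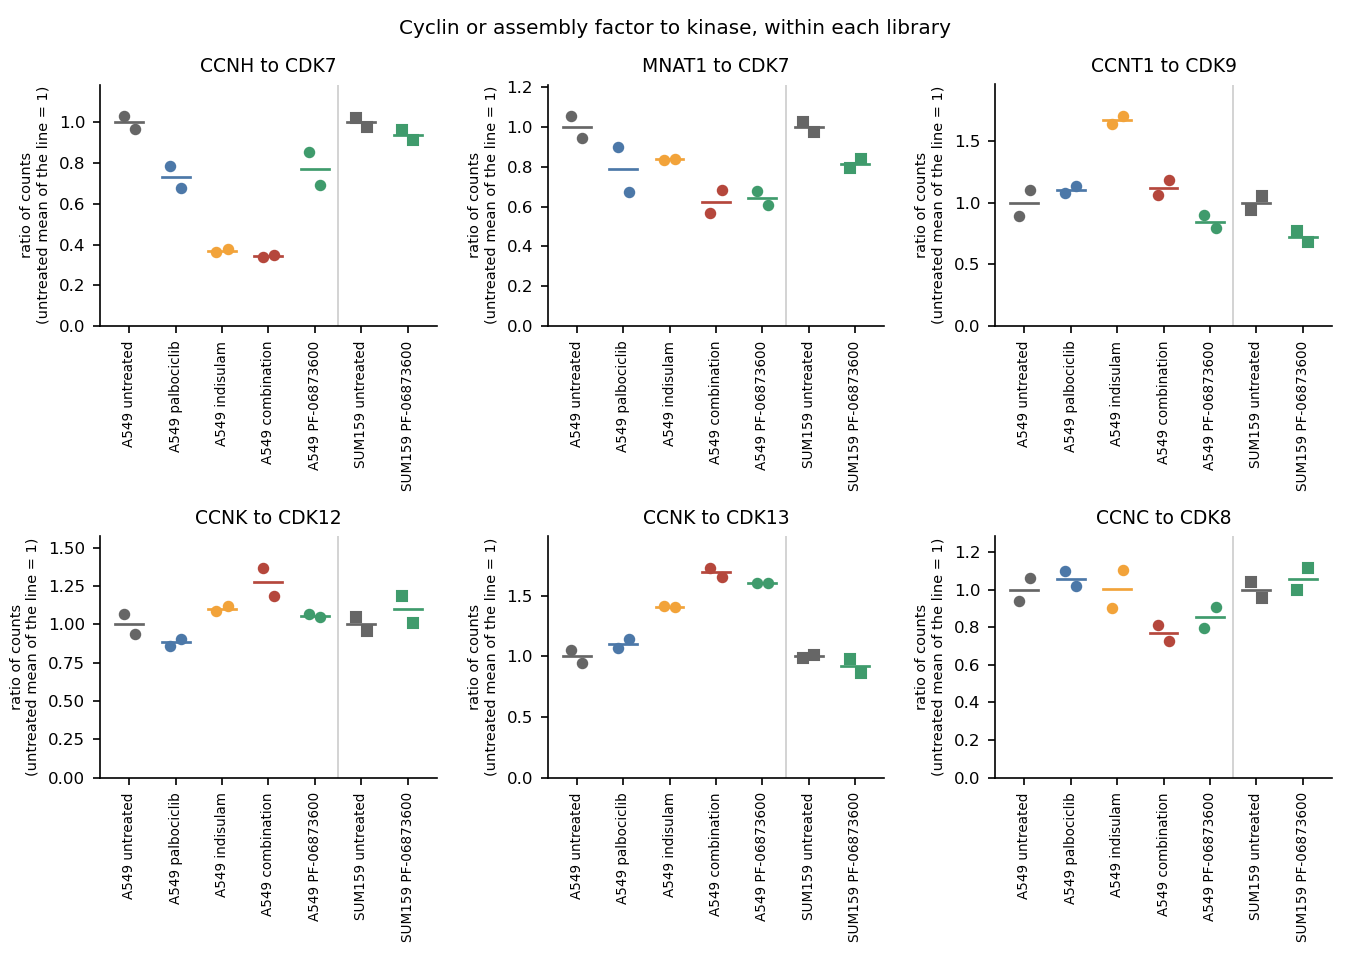
Ratio of the counts of a cyclin or assembly factor to those of its kinase within each library (vertical axis, from 0; the untreated mean of the line is 1), with points for libraries and a line for the group mean. CCNH to CDK7 lies at 0.341 to 0.378 in the 4 libraries with indisulam and CCNT1 to CDK9 at 1.64 and 1.70 with indisulam alone.

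The genes around the members were given by 10 lists of 65 genes, all tested in A549 and 63 in SUM159. With PF-06873600 in SUM159, 42 of the 63 were lower and 10 higher, with a median log2 fold change of -0.40, against 35.6% and 38.1% of all genes. In A549 the same drug had 16 lower and 16 higher of 65, against 27.8% and 28.5% of all genes. The combination had 26 lower and 16 higher (30.0% and 35.1% of all genes), indisulam 14 lower and 15 higher (17.5% and 28.0%), and palbociclib 6 lower and 8 higher (7.40% and 8.30%). The counts of each list below are to be read beside these shares of all genes, and no list was tested as a set.

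TFIIH carries the CDK-activating kinase to promoters. Of 7 genes of its core, 3 were higher and 1 lower with indisulam and with the combination, and ERCC2, the helicase that anchors the kinase, was 1.07 ± 0.10 higher on the log2 scale with the combination (adjusted p = 3.96e-07). In SUM159 with PF-06873600, 4 of 6 tested were lower, GTF2H2 most (log2 -1.30 ± 0.19, adjusted p = 2.48e-05; it has near-identical copies among which reads may be split). Of the kinase's cell cycle substrates CDK1, CDK2, CDK4 and CDK6, 3 were lower with the combination, with CDK1 at -2.74 ± 0.13 (adjusted p = 1.77e-10), and CDK6 was higher (0.51). CDK2 and CDK6 were higher with PF-06873600 in A549 (log2 1.05 and 0.83), and CDK1 (-0.73) and CDK2 (-0.40) lower in SUM159.

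P-TEFb is held inactive on a small nuclear RNA by HEXIM proteins and LARP7. LARP7, which stabilises that RNA, was lower with indisulam (log2 -0.40), the combination (-0.65) and PF-06873600 in A549 (-0.59) and SUM159 (-0.82). Of the 6 genes of that list, 4 were lower and 1 higher in SUM159. Of 8 genes of the super elongation complex, in which P-TEFb also works, 5 were higher and 1 lower with the combination, and the elongation factor ELL2 was highest at 1.10 ± 0.068 (adjusted p = 3.12e-09). AFF1, a scaffold of that complex, was higher in SUM159 with PF-06873600 (2.21 ± 0.083, adjusted p = 7.58e-12), where the list had 3 higher and 3 lower. Of 6 pausing factors on which CDK9 acts, 4 were lower in SUM159 and 0 higher, and with the combination NELFCD (-0.89) and NELFE (-0.50) were lower and SUPT5H (0.66) higher.

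CDK19, the paralog of CDK8, moved opposite to CDK8 in SUM159 with PF-06873600 (log2 1.12 ± 0.082, adjusted p = 1.03e-08) and was lower in A549 (-0.59 ± 0.12, adjusted p = 0.000615). MED12, which activates the Mediator kinase, was lower with indisulam (-0.45), the combination (-0.79) and PF-06873600 in SUM159 (-0.35). Of 5 other module genes, 4 were lower in A549 and 3 in SUM159 with PF-06873600. Of 7 further transcription-linked kinases and cyclins, CDK10 was lower with PF-06873600 in A549 (-0.92) and SUM159 (-0.87).

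Of 12 subunits of RNA polymerase II, whose tail these kinases phosphorylate, 10 were lower and 1 higher in SUM159 with PF-06873600, and 7 were lower and 2 higher with the combination. POLR2A, the subunit that carries the tail, was higher in A549 with indisulam (log2 0.31), the combination (0.74) and PF-06873600 (0.48). The tail phosphatase genes CTDSPL and CTDSP1 were lower in all 4 treated A549 groups, at -1.65 and -1.19 with the combination, while CTDP1 was higher with the combination (0.75) and PF-06873600 (0.52). In SUM159, 4 of the 6 phosphatase genes were lower (RPAP2 -0.49, SSU72 -0.49) and 2 higher (CTDSPL 0.34, CTDSP2 0.20). Of the 4 DNA repair genes known to depend on CDK12 (BRCA1, FANCD2 and FANCI among them), 4 were higher with palbociclib and 3 with PF-06873600 in A549, and 4 were lower with the combination and 4 in SUM159. With indisulam 2 were lower, FANCI (log2 -0.56) and FANCD2 (-0.43), and 0 higher, while CDK12 was higher. With the combination CDK12 itself was higher while FANCD2 was at -1.93 ± 0.16 (adjusted p = 6.48e-08). Repair genes of this kind can also follow the cell cycle. The summed proliferation markers given above fell most with the combination and in SUM159 with PF-06873600. In A549 they were also below the untreated 845 and 890 CPM with palbociclib (754 and 790) and with indisulam (803 and 831). With PF-06873600 in A549 they were 822 and 850 CPM, overlapping the untreated libraries. The part of the cell cycle in the changes of the repair genes was not tested.

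**Figure D5:**
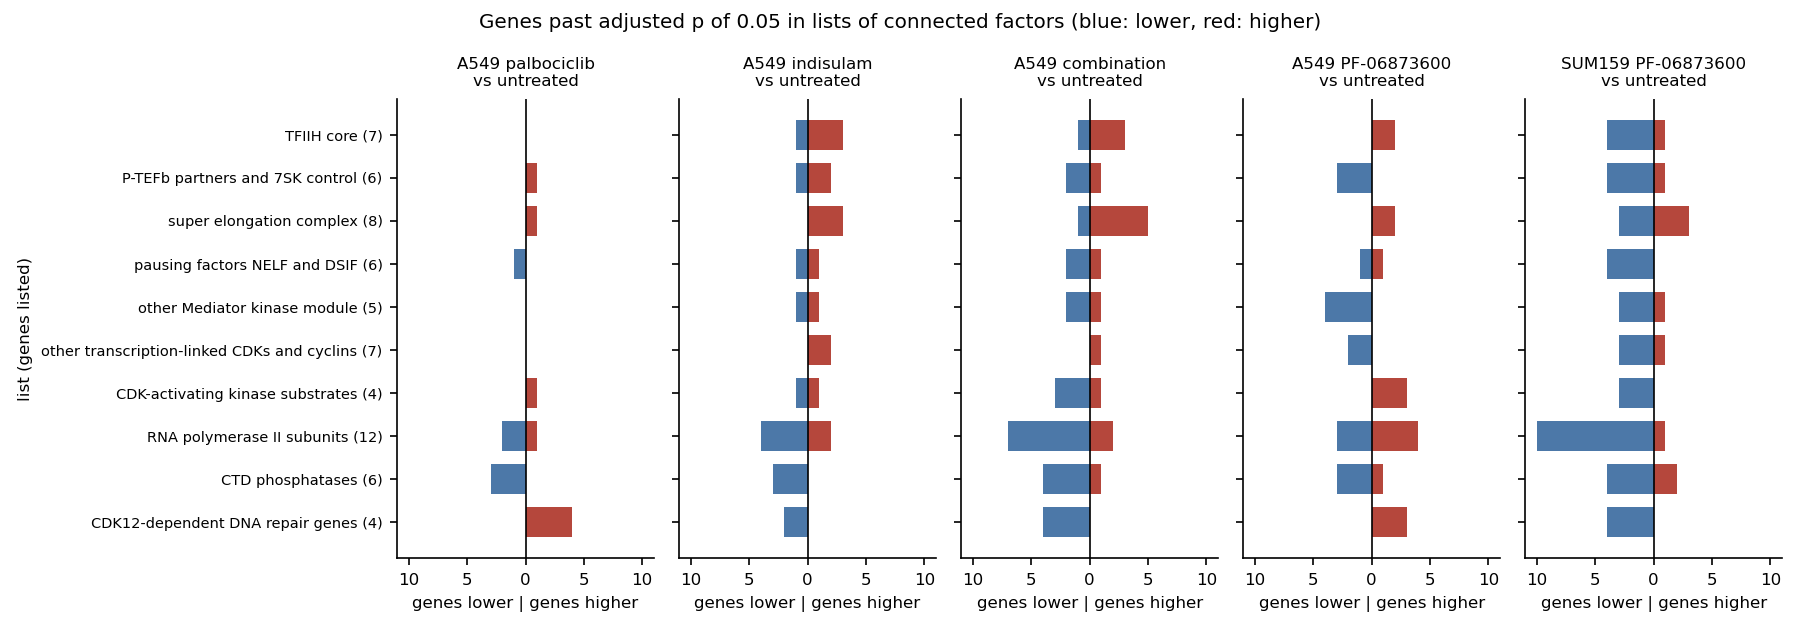
Number of genes lower (blue, to the left) and higher (red, to the right) at an adjusted p under 0.05 in 10 lists of genes connected to the members, for the 5 treated groups against untreated cells of their line; the number of genes listed follows each name. The longest bar is the 10 of 12 polymerase subunits that were lower in SUM159 with PF-06873600.

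The genes most like a member were found by the distance between their 5 log2 fold changes against untreated cells, among 9642 genes with a mean of at least 10 CPM. CCNH had the most distant neighbours, RMND5B, SURF1 and TMEM62, at 0.414 to 0.429. The distance was not scaled by the size of the changes. Of the members, CCNH had the largest changes in size with indisulam (log2 -1.23) and the combination (-1.30). The other 9 members had their nearest gene at 0.0837 (PRKCI for CDK7) to 0.213 (RAD54L2 for CCNT1). For CDK12 they were NACC1, INTS1 and HSPA4, and for CCNK NBPF1, RIPOR1 and FAM83G.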

How the data were processed

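Per the labels and the study's methods, stranded mRNA libraries were read as single-end 65-base reads and aligned to GRCh38. The submitters' processing notes name HISAT2 2.2.1 and HTSeq without their roles, and the annotation release is not given in the sources used here. The authors deposited whole-number read counts per Ensembl gene for each library, without normalization. A table holds 60683 identifiers and 9 summary lines, which were left out. Reads that overlapped several genes (3.38% to 4.00% as a percent of reads, by the ambiguous line) are among those not counted. Reads carry no molecular identifiers.

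Groups came from the sample labels. The libraries of a group differed by more than sampling noise (chi-square per degree of freedom 1.40 to 6.52) and were kept apart. Symbols and exon lengths came from GENCODE release 44 and start windows from RefSeq (GRCh38.p14). The 10 members and all lists were chosen with earlier results of these data known. Counts were tested in edgeR 4.0.16 (R 4.3.3) with the quasi-likelihood F test. Genes were kept by filterByExpr, libraries were scaled by total count, which follows the size factor of the study's methods, and p-values were adjusted by Benjamini-Hochberg with a threshold of 0.05. The A549 model held 10 libraries (15780 genes), the SUM159 model 4 (15055) and the model of both lines 14 (17279). The standard error is the absolute log2 fold change over the root of F. In each comparison all members and at most 4 genes a list, those with the extreme changes past the threshold, were named. Alternatives were TMM scaling, DESeq2 1.42.0, no filter, a mean of 50 counts, a block for the replicate number, a model of the compared groups alone, and each library left out. The scripts were tested on simulated data. Figures used Python 3.11.15 and matplotlib 3.10.9.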

Additional observations from a re-analysis of the deposited data

Results flagged for a closer look

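For 5 members the response to PF-06873600 differed between A549 and SUM159 by the interaction test in 1 model of both lines. All 5 responses were lower in SUM159, where 27.2% of 17279 genes tested were lower in that sense and 25.8% higher. The log2 response in SUM159 minus that in A549 was -1.12 for CDK12, -1.06 for CCNK, -0.66 for CDK8, -0.34 for CCNC and -0.26 for CDK13. The calls of CCNC and CDK13 were lost with DESeq2 and in some fits without 1 library, as given above. For CDK12 and CCNK both libraries of A549 were above and both of SUM159 were below the untreated libraries of their line. Groups of 2 libraries are too small for the test of single outlying samples, which was not run.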

How the results depend on the processing

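Over 100 log2 fold changes of members (10 members in 10 comparisons), 98 kept their direction and side of the threshold with the replicate number as a block, 92 without a filter, 100 with a mean of at least 50 counts, 86 with TMM scaling, 85 with DESeq2, and 81 of 90 with only the compared groups. With the replicate block the members called numbered 2 (palbociclib), 5 (indisulam), 6 (combination) and 5 (PF-06873600, A549), and all 10 in SUM159. The replicate numbers were not shown to pair the libraries: deviations of same-numbered libraries correlated at -0.38 (palbociclib and untreated) to 0.38 (indisulam and untreated). A crossed pairing of palbociclib and untreated, chosen after seeing the data, left 2 members called against untreated, 6 for the combination against palbociclib and 2 for the interaction. The causes of the changes below were not tested.

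The members called fell to 0 for palbociclib with only the compared groups, to 3 for the combination against palbociclib with DESeq2 or no filter, and to 3 for PF-06873600 in A549 and 3 for the line difference with DESeq2. With 1 library left out the members called ranged over 0 to 3 for palbociclib, 3 to 4 for the combination against palbociclib, 2 to 5 against indisulam, 1 to 3 for the interaction, 3 to 6 for PF-06873600 in A549 and 3 to 7 for the line difference. Log2 values took the other sign, none past the threshold, with TMM and DESeq2 for CDK13 with indisulam (-0.062 and -0.055), CDK9 with the combination (-0.082 and -0.034), CDK7 in the combination against palbociclib (-0.055 and -0.0062) and CCNT1 between untreated lines (-0.082 and -0.065), and with TMM for MNAT1 there (-0.017).

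With 1 library left out, log2 values crossed 0 with palbociclib for CDK8 (-0.066 to 0.030) and CCNC (-0.073 to 0.20), and with indisulam for MNAT1 (-0.11 to 0.00045), CDK8 (-0.14 to 0.10) and CCNC (-0.15 to 0.12). They crossed 0 with the combination for CDK9 (-0.059 to 0.067) and CCNC (-0.25 to 0.025), against palbociclib for CDK7 (-0.049 to 0.14), against indisulam for CDK7 (-0.033 to 0.099) and CCNH (-0.14 to 0.0084), and in the interaction for CDK12 (-0.22 to 0.010). With PF-06873600 in A549 they crossed 0 for CDK7 (-0.026 to 0.21), CCNT1 (-0.11 to 0.076) and CDK8 (-0.096 to 0.15), in the line difference for CCNH (-0.063 to 0.064), MNAT1 (-0.0079 to 0.11) and CDK9 (-0.072 to 0.12), and between untreated lines for CCNT1 (-0.065 to 0.12). Calls gained by leaving out 1 library also held for CDK8 in the combination against indisulam (without A549 indisulam replicate 1, 0.40) and CCNC in the interaction (without A549 untreated replicate 2, -0.29). A count of 3 corresponds to 0.142 to 0.230 CPM, and all members were far above it.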
